A study of Mus musculus with 12 samples.

Results

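The HOX genes of the mouse lie in 4 clusters, HoxA, HoxB, HoxC and HoxD, and the 39 protein-coding genes of these clusters were taken from the mouse gene annotation by symbol (Hoxa, Hoxb, Hoxc or Hoxd followed by a number), out of 21523 protein-coding genes on the autosomes and the X chromosome. There were 11 HOX genes in HoxA, 10 in HoxB, 9 in HoxC and 9 in HoxD. The rule used no measured value, but it was chosen with earlier results of these data known. The assay was ATAC-seq, which reads open chromatin from where a transposase can cut the DNA, on cells sorted from SHH medulloblastoma, a tumour of the cerebellum driven by Sonic hedgehog signalling. All libraries came from untreated tumours of Ptch1+/- mice, which lack 1 copy of the gene for the inhibitory hedgehog receptor, taken when the disease had reached its endpoint. Cells were sorted by an eGFP signal into SOX2+ (4 libraries) and SOX2- (4 libraries), the stem-like and the bulk compartment in the submitters' terms, and SOX2+ cells were sorted by an RFP signal into cycling SOX2+/MKI67+ (2 libraries) and non-cycling SOX2+/MKI67- (2 libraries). Both sorts rest on reporter signals in whole tumours, so host cells with the same signal would enter a gate. The labels do not say whether replicates came from separate animals, so p-values measure only the spread between these libraries, which may be technical.

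HOX genes encode homeodomain transcription factors that give cells along the body axis their position. Within a cluster the genes are arranged in the order in which they are used from front to back, and paralogs are numbered 1 to 13 accordingly. In the embryonic brain the front limit of HOX expression lies in the hindbrain behind the territory that forms the cerebellum, and in tissues that do not use them the clusters are typically held silent by Polycomb complexes. Retinoic acid, CDX factors and the hindbrain factor EGR2 switch HOX genes on, and PBX and MEIS proteins bind DNA together with HOX proteins.

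The values are the deposited peaks, the stretches that a peak caller set apart from the background of each library alone. The lists held 9377 to 25272 peaks in SOX2+ libraries, 7009 to 26206 in SOX2- libraries, 18738 and 24694 in SOX2+/MKI67+ libraries, and 19229 and 17615 in SOX2+/MKI67- libraries. No read counts came with them, and list length is used here in place of the unknown depth. A cluster was measured from the outer end of its first HOX gene to the outer end of its last, and a peak belonged to a window when its midpoint lay in it.

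HoxB, HoxC and HoxD were nearly empty of peaks in all sorted groups, while HoxA was not. Of 218906 peaks in the 12 lists, 23 lay inside the 4 clusters, which span 492 kb, and 46 lay within 100 kb of them. The HoxB cluster held 0 peaks in all 12 lists, HoxC 2, HoxD 2 and HoxA 19. HOX start sites were listed in fewer lists than start sites of like base composition, for which sequences and shares are given first.

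Promoter windows of RefSeq (GRCm38.p6, the mm10 assembly; 250 bases before to 50 after a start site) could be matched for 22 of the 39 HOX genes, with 24 start sites. Of these 24 windows, 11 were CpG-rich (GC content of at least 50% and an observed to expected CpG ratio of at least 0.6), which is 45.8%, against 45.6% of 21045 windows of all genes. The following sequences show what an open start site beside a cluster and a mostly closed one inside a cluster look like, with every CpG in capitals. The first 3 belong to flank genes and carried a peak in 8, 12 and 5 of 12 lists within 1 kb of the start. Skap2 encodes an adaptor protein of Src-family kinases, Lnpk the endoplasmic reticulum protein lunapark, and Mtx2 a mitochondrial import protein. The windows are chr6:52012500-52012799 on the minus strand, chr2:74578899-74579198 on the minus strand and chr2:74825562-74825861 on the plus strand.
Skap2: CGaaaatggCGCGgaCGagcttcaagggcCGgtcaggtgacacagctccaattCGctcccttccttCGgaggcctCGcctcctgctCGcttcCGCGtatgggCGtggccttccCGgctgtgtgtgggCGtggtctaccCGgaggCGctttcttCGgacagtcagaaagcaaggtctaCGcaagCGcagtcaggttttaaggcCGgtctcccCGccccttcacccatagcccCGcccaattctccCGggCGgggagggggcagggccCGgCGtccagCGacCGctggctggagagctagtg
Lnpk: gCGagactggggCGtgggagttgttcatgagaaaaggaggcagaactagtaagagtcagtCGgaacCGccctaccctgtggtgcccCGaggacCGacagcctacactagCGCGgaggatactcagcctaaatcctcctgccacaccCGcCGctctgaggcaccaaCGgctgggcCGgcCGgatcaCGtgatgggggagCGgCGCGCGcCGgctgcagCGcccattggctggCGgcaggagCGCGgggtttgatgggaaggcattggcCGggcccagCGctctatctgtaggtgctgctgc
Mtx2: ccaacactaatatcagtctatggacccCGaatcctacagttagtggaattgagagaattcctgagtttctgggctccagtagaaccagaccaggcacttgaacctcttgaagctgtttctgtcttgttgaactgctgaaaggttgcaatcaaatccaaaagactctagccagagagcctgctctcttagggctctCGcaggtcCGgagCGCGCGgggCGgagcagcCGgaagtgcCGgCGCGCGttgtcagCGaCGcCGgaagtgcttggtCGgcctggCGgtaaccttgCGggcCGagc
The next 3 are CpG-rich start sites of HOX genes. Hoxa13 and Hoxd13 pattern the most posterior body parts and the distal limb, and Hoxa5 acts in the neck and thorax. They carried a peak within 1 kb of the start in 0, 1 and 1 of 12 lists. The windows are chr6:52260831-52261130 on the minus strand, chr2:74667975-74668274 on the plus strand and chr6:52204538-52204837 on the minus strand.
Hoxa13: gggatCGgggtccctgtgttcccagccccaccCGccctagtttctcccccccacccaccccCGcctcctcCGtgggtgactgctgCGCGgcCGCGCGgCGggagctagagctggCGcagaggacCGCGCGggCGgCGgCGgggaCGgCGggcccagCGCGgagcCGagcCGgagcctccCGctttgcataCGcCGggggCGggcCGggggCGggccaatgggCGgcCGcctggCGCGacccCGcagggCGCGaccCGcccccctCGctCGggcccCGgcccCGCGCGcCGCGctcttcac
Hoxd13: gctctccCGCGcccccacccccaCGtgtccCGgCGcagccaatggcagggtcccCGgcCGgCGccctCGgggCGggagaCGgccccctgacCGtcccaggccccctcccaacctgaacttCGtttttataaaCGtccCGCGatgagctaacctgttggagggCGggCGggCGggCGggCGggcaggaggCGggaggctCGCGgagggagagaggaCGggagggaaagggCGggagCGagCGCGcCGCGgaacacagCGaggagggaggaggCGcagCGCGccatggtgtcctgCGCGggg
Hoxa5: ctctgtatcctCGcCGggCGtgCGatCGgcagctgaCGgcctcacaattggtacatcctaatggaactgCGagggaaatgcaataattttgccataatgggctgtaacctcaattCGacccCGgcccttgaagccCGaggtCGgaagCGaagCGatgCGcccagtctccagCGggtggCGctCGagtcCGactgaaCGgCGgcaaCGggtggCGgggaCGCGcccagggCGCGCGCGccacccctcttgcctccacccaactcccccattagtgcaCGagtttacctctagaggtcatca
The Skap2 window has 28 CpGs, the Lnpk window 25 and the Mtx2 window 19. The Hoxa13 window has 45 CpGs, the Hoxd13 window 37 and the Hoxa5 window 29. The 3 HOX windows thus hold more CpGs than the 3 flank windows while fewer lists had a peak there.

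Of the 24 HOX start sites, 4 had a peak within 1 kb in any list (16.7%), against 58.3% of all start sites. None of the 24 had one in 6 or more lists, against 47.9% of all start sites and 82% of the CpG-rich ones. Among the CpG-rich start sites alone, 3 of 11 HOX sites had a peak in any list (27.3%), against 92.6% of 9599 CpG-rich sites of all genes. The 4 sites were those of Hoxa5 in SOX2+ replicate 1, Hoxd8 in SOX2+ replicate 4, Hoxd13 in SOX2- replicate 4 and Hoxa10 in SOX2+/MKI67- replicate 1. Each was thus seen in a single list, and no library had more than 1 of the 24. These shares describe the peak lists and carry no test.

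**Figure D1:**
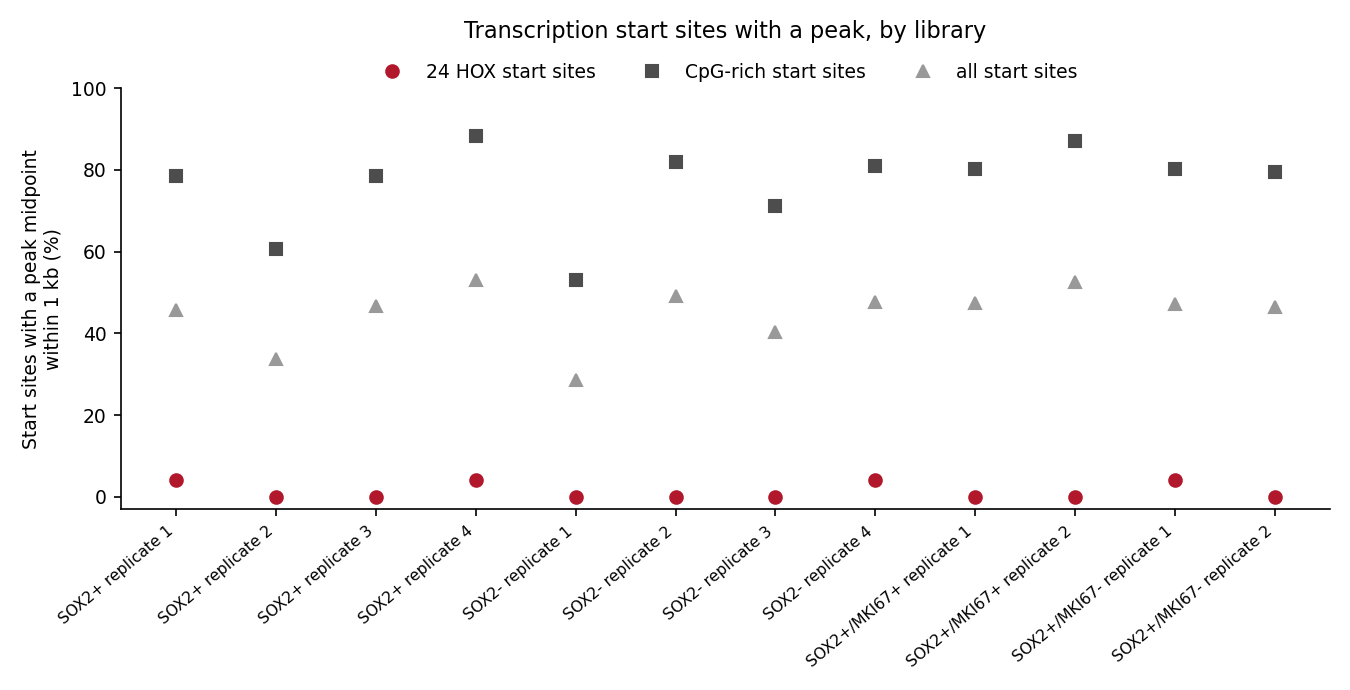
Percent of transcription start sites with a peak midpoint within 1 kb (y axis) in each of the 12 libraries (x axis), for the 24 HOX start sites, the CpG-rich start sites of all genes and all start sites. The HOX share is 0% or 4.17% in every library, while the CpG-rich share lies between 53% and 88.2%.

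The windows were searched for sites of HOX partners, of CTCF and of the retinoic acid receptor. The HOX-PBX site (TGATNNAT, either strand) occurred in 4 of 24 HOX windows (16.7%), those of Hoxa2, Hoxb1, Hoxb8 and 1 of the starts of Hoxd11, against 7.36% of all windows. The MEIS site (TGACAG, either strand) occurred in 2 HOX windows (8.33%), those of Hoxa2 and Hoxa3, against 18.3% of all windows. The CTCF core (AGGGGGC, either strand) occurred in 2 HOX windows (8.33%), those of Hoxd13 and Hoxa10, against 13% of all. The retinoic acid response element, a pair of AGGTCA half-sites in the same direction with 5 or 2 bases between them, occurred in 0 HOX windows with either spacing. Over all 21045 windows it occurred in 1 with 5 bases and in 0 with 2, so its absence from 24 windows carries no information. A match is only a run of letters, and the lack of one says nothing about the factor. The windows of Hoxb1 and Hoxa2, genes used in the hindbrain, are shown because they hold the HOX-PBX letters, and they are printed with HOX-PBX and MEIS matches in capitals. Hoxb1 marks the fourth hindbrain segment and Hoxa2 patterns the second. The windows are chr11:96365508-96365807 on the plus strand and chr6:52164782-52165081 on the minus strand.
Hoxb1: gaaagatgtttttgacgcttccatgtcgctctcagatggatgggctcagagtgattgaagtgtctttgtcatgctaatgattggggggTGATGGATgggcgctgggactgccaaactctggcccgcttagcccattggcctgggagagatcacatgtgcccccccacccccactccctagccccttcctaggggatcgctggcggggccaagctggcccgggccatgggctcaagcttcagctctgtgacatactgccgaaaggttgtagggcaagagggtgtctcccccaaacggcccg
Hoxa2: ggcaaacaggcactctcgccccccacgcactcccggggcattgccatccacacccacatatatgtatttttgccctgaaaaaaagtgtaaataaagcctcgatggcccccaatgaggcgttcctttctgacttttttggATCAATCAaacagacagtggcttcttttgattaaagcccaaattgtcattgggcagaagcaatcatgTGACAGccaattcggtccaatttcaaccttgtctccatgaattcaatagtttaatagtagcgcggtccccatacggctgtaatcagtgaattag
Neither start site had a peak within 1 kb in any of the 12 lists.

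The 4 clusters also hold 6 miRNA genes, of which the miR-10 and miR-196 families target HOX mRNAs. Their mature 5p forms are printed with the seed (bases 2 to 8) in capitals. Mir10a lies in HoxB (chr11:96317186-96317208, plus strand) and Mir10b in HoxD (chr2:74726074-74726096, plus strand), and they share a seed. Mir196a-2 lies in HoxC (chr15:102973365-102973386, plus strand) and Mir196b in HoxA (chr6:52230129-52230150, minus strand), and they share another.
miR-10a-5p: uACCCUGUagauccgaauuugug
miR-10b-5p: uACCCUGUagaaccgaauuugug
miR-196a-5p: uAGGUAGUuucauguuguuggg
miR-196b-5p: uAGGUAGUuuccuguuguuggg
All 6 miRNA genes, with Mir196a-1 and Mir615, were without a peak within 1 kb in all 12 lists, and the nearest peak of any list lay 4.24 kb from Mir196b and 119 kb from Mir196a-1. Of 25 long noncoding RNA genes in the clusters, 21 had no peak within 1 kb of an end. The shares over all genes of either kind were not computed, so neither count can be read as particular to the clusters. Hotairm1, a transcript from the anterior end of HoxA that is known for its link to HoxA activity in myeloid cells, had one in 3 lists. Its neighbour Hotairm2 had one in the same 3 lists, through the same region (chr6:52158172-52158754). Hotair, the HoxC transcript, and Haglr in HoxD had one in 0 lists.

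The question that the 2 sorts pose here is whether the cells differ at the HOX clusters, genes that mark territory behind the cerebellum. Inside the clusters the SOX2+ libraries held 2, 0, 1 and 6 peaks, the SOX2- libraries 0, 2, 0 and 4, the SOX2+/MKI67+ libraries 0 and 4, and the SOX2+/MKI67- libraries 4 and 0. The groups overlap, and every group has a library with no peak inside. The 5 libraries with none had lists of 7009, 9377, 12660, 17615 and 18738 peaks, and the 7 with any had lists of 16788 to 26206 peaks. Scaled to the genome, libraries had 0 to 12.2 peaks per Mb inside the clusters with a median of 3.05, against 2.66 to 9.96 per Mb over the genome with a median of 7.21. In 10 of 12 libraries the density inside was below that library's own genome density. The clusters differed in this: HoxA alone had a median of 9.48 peaks per Mb over the libraries and lay above the library's own genome density in 7 of 12, whereas HoxB did so in 0, HoxC in 1 and HoxD in 2.

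**Figure D2:**
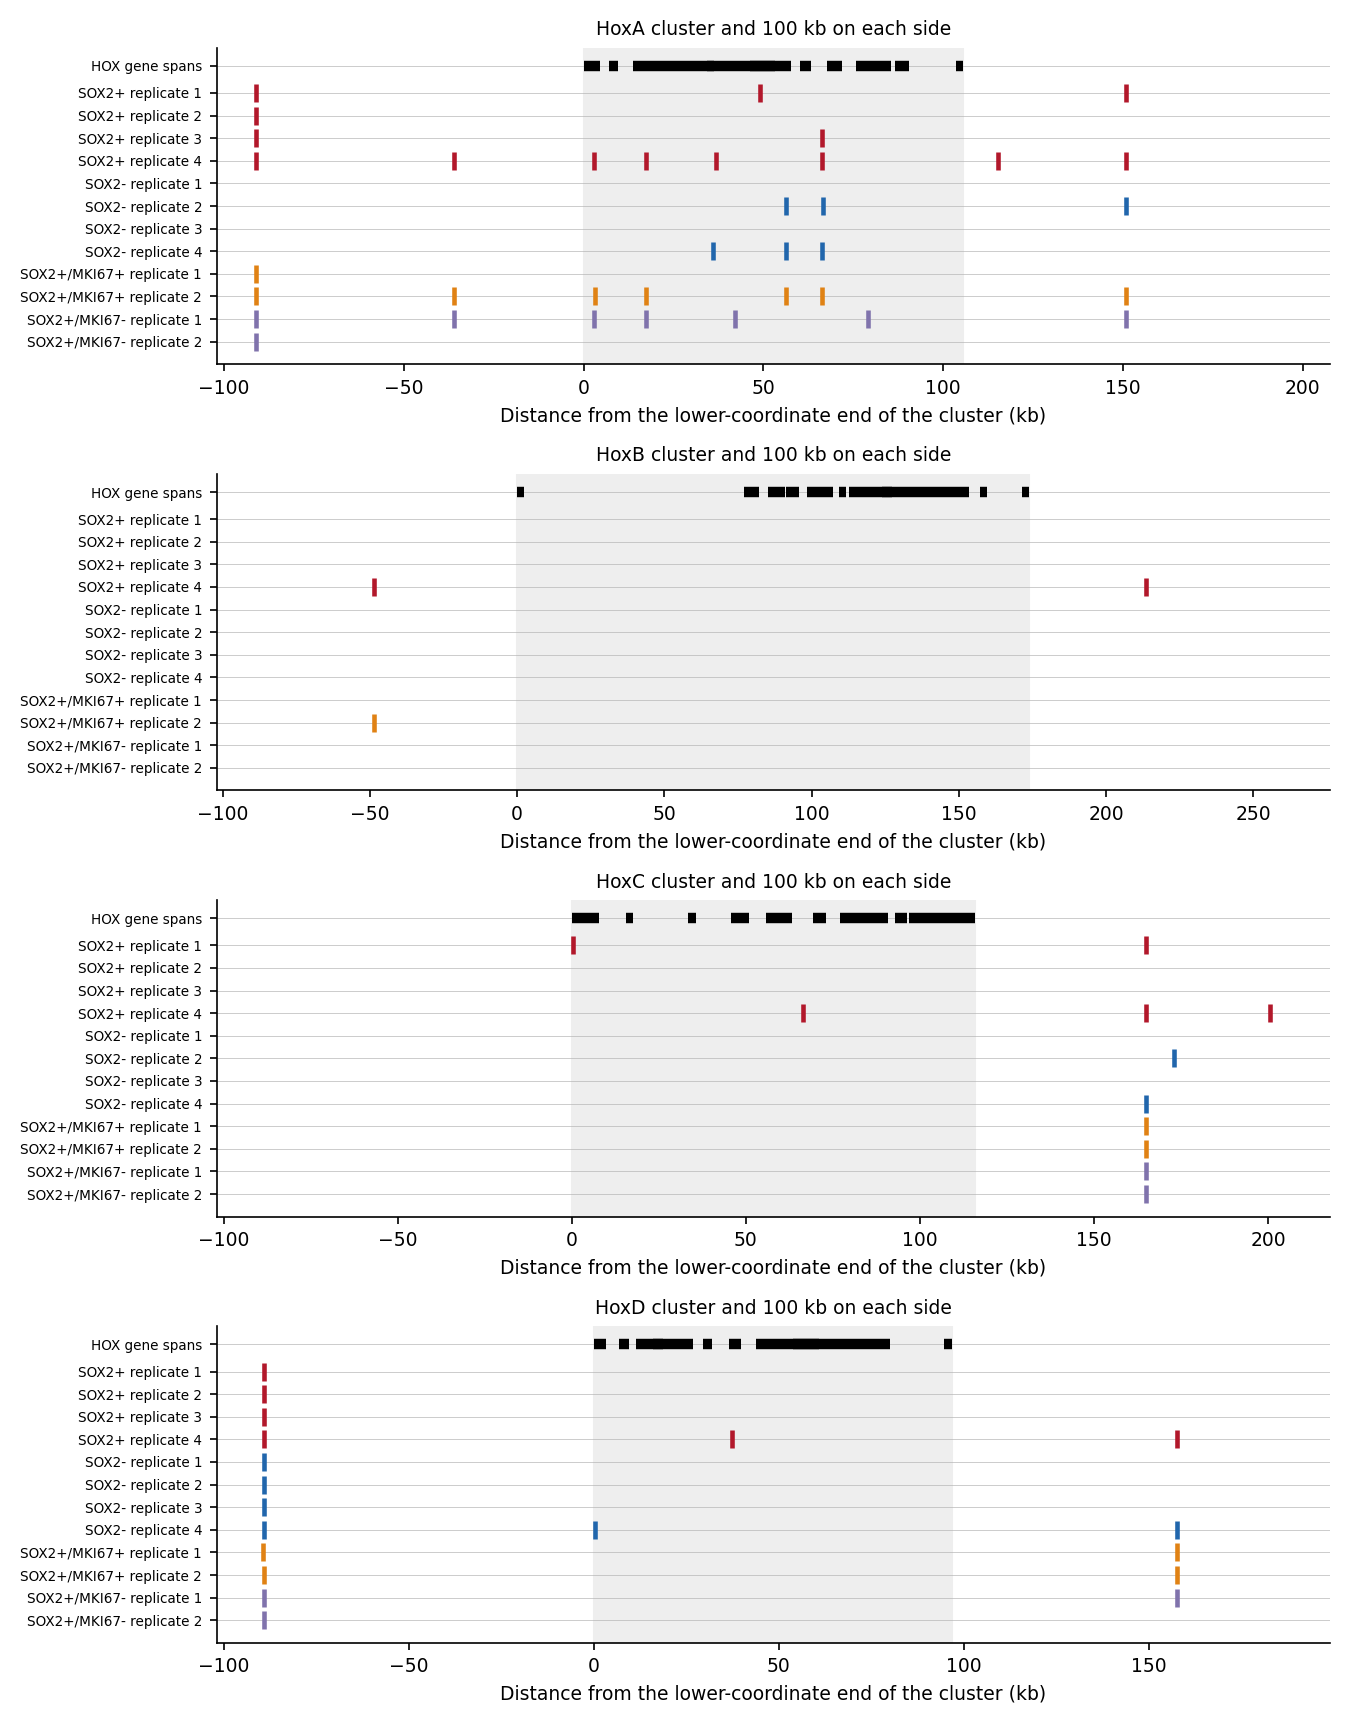
Peak midpoints (ticks) of each library (rows) in and around the 4 clusters, by distance in kb from the lower-coordinate end of the cluster; grey marks the cluster and black bars the HOX gene spans. HoxB has no tick inside in any row, HoxA has 19, and the column of ticks about 91 kb to the left of HoxA is present in the 4 SOX2+ rows and the 4 rows of the MKI67 sort but in none of the 4 SOX2- rows.

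HoxB (chr11:96194316-96368254) covers the longest stretch, 174 kb with 10 genes, and was empty in all lists. Emptiness of a gene-rich stretch was not unusual in these lists: of 685 stretches of 100 kb with 5 or more coding genes, 125 (18.2%) had no peak in any list, many of them gene families such as olfactory receptors, and the median was 33 peaks. A 100 kb stretch of HoxB with 5 genes was among the 125. HoxC (chr15:102921131-103036856) held 1 peak in SOX2+ replicate 1, at the outer end of Hoxc13, and 1 in SOX2+ replicate 4, near Hoxc8. HoxD (chr2:74668225-74765142) held 1 in SOX2+ replicate 4, in Hoxd8, and 1 in SOX2- replicate 4, in Hoxd13. The MKI67 sort had none in HoxB, HoxC or HoxD.

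HoxA (chr6:52155367-52260880) held most of the peaks. The 2 stretches of 100 kb that hold its genes had 12 and 11 peaks over all lists, against a median of 12 for stretches with at least 1 coding gene and 33 for those with 5 or more. The SOX2+ libraries had 1, 0, 1 and 4 peaks there, the SOX2- libraries 0, 2, 0 and 3, the SOX2+/MKI67+ libraries 0 and 4, and the SOX2+/MKI67- libraries 4 and 0. Per 10000 listed peaks this was 0.672 ± 0.662 in SOX2+ and 0.537 ± 0.67 in SOX2- libraries (SD, n = 4 each), a difference of 0.135 with p = 0.829 in a 2-sided exact permutation test. The SOX2+/MKI67+ libraries averaged 0.81 and the SOX2+/MKI67- libraries 1.04. With 2 libraries a group the smallest possible p of that test is 0.33, so the MKI67 sort is given as values with no test. The difference between SOX2+ and SOX2- inside HoxA turned to -0.168 without SOX2+ replicate 4 and to -0.0437 without SOX2- replicate 1 or without SOX2- replicate 3.

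Overlapping peaks (1 bp or more) were joined across the 12 lists, which gave 13 regions inside the clusters. Of these, 9 (69.2%) were in a single list, against 30.4% of 44242 regions genome-wide, and none was in 6 or more lists, against 36.8% genome-wide. They were weak within their lists: the median percentile of the authors' peak score was 15.4, where 50 is the middle of a list, and the median of the authors' fold over local background was 3.45, against 4.36 for all regions. Their median width was 260 bp, against 411 bp. None was in at least 3 lists of 1 SOX2 group and in none of the other.

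Recurrent regions of HoxA lay towards its anterior end and in its centre. A region at chr6:52172505-52172877, in the span of Hoxa3, was in the lists of SOX2+ replicate 4, SOX2+/MKI67+ replicate 2 and SOX2+/MKI67- replicate 1, and in 0 of 4 SOX2- lists. Another region with the same 3 lists lay outside the cluster at chr6:52119172-52119519, 36 kb from its anterior edge. Hoxa3 acts in the hindbrain and pharyngeal arches. In the centre, chr6:52211485-52211933 in the Hoxa3 span was in 2 SOX2- lists and 1 SOX2+/MKI67+ list, and chr6:52221560-52222013, 1.31 kb from Hoxa9, was in 2 SOX2+, 2 SOX2- and 1 SOX2+/MKI67+ lists. The Hoxa9 region was the most recurrent inside any cluster, with 5 lists, and its peaks had a median score percentile of 3.27, near the bottom of the lists. Hoxa9 is a regulator of the trunk and of blood progenitors.

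**Figure D3:**
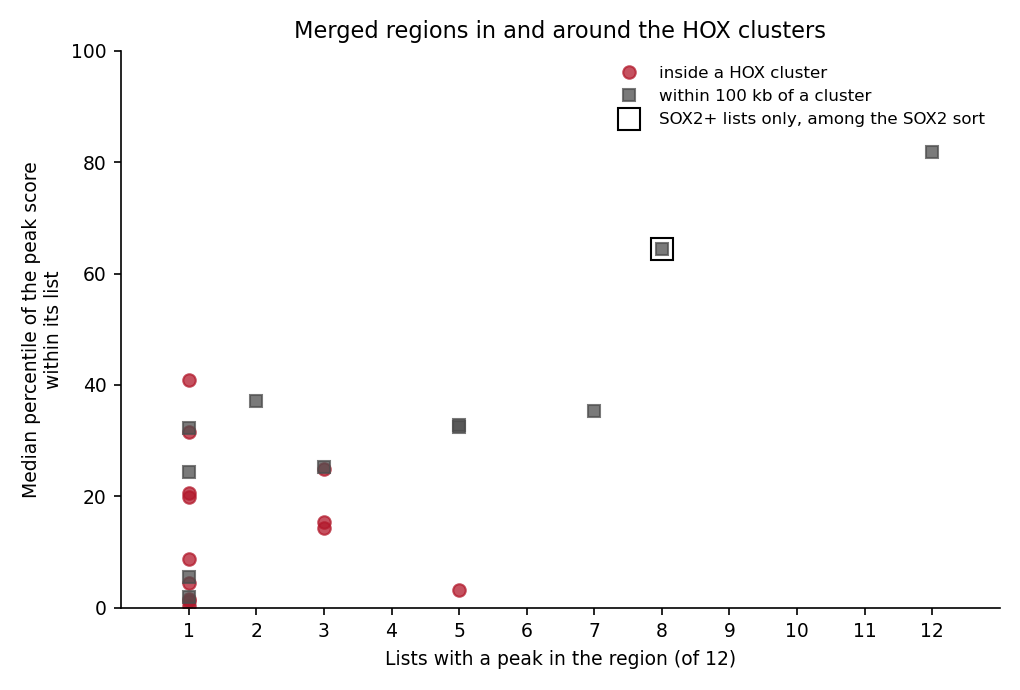
Number of lists with a peak in a region (x axis, of 12) against the median percentile of the peak score within its list (y axis) for 13 regions inside the clusters and 11 within 100 kb of them. Regions inside lie at 5 lists or fewer, and the square outlined in black at 8 lists is the flank region of HoxA listed in SOX2+ but not SOX2- libraries.

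Of the 39 genes, 13 had a peak assigned in any library, by nearest gene span within 100 kb, and 26 had none. Of the 13, 9 had it in 1 library. HoxA left 4 of 11 genes without an assigned peak, HoxB 9 of 10, HoxC 6 of 9 and HoxD 7 of 9. Among all coding genes 29.4% had none. HOX genes averaged 0.0769 peaks per gene and library, against 0.797 for all coding genes. A peak within 1 kb of a gene end was listed for 6 HOX genes: Hoxa4 in SOX2+ replicate 4 and SOX2- replicate 4, Hoxa5, its neighbour Hoxa6 and Hoxc13 in SOX2+ replicate 1, Hoxd8 in SOX2+ replicate 4 and Hoxd13 in SOX2- replicate 4. Hoxa5 and Hoxa6 share the same peak. The share of HOX genes with a gene-end peak was 3.21% ± 3.85 in SOX2+ and 1.28% ± 2.56 in SOX2- libraries (SD, n = 4 each), and 0% in all 4 libraries of the MKI67 sort. Over all coding genes it was 43.7% ± 7.98 in SOX2+ and 40.4% ± 9.4 in SOX2- libraries. The spread over libraries of the HOX share is wider than the difference between its group means.

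The limma fit of log2(peaks per gene + 1) took in a gene if 2 or more libraries had a peak for it, which held for 4 HOX genes and not for the other 35. The 4 passed this filter through their few peaks, so their count supports nothing about the family. Hoxa3 had 0, 0, 0 and 2 assigned peaks in SOX2+, 0, 1, 0 and 1 in SOX2-, 0 and 2 in SOX2+/MKI67+, and 2 and 0 in SOX2+/MKI67- libraries (log2 difference -0.23 ± 0.47, SE, limma adjusted p = 0.953). High and low libraries occur within the same group, and the groups overlap.

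Hoxa9 had 0, 0, 1 and 1 in SOX2+, 0, 1, 0 and 1 in SOX2-, 0 and 1 in SOX2+/MKI67+, and 0 and 0 in SOX2+/MKI67- libraries (-0.11 ± 0.24, limma adjusted p = 0.968). Hoxc4, which acts in the cervical region, was the most frequent HOX gene with 8 libraries: 1, 0, 0 and 1 in SOX2+, 0, 1, 0 and 1 in SOX2-, and 1 in each of the 4 libraries of the MKI67 sort (-0.09 ± 0.24, limma adjusted p = 1). None of the Hoxc4 peaks lay in the gene. In 7 lists the peak was in a region at chr15:103085812-103086280, 49.2 kb beyond the outer end of the gene. In limma with Benjamini-Hochberg adjustment over 14248 genes, 0 of the 4 HOX genes passed an adjusted p of 0.05 in the SOX2 sort, against 127 genes (0.891%) over all, and 0 of 4 in the MKI67 sort, against 32 (0.225%). None of the 4 had an unadjusted p under 0.05 in either sort. The fit was tried on simulated lists with changes in SOX2+ libraries only, in genes averaging at least 1 peak per library. Of such genes, 10% of those changed 4-fold and 89.5% of those changed 8-fold were called, so smaller differences would mostly go unseen. No HOX gene reached that average, so these shares do not apply to the 4 HOX genes. No change was simulated in the MKI67 sort.

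The exception lay outside the clusters. Within 100 kb of HoxA the SOX2+ libraries had 2, 1, 1 and 4 peaks and the SOX2- libraries 0, 1, 0 and 0, while the SOX2+/MKI67+ libraries had 1 and 3 and the SOX2+/MKI67- libraries 3 and 1. Per 10000 listed peaks this was 1.09 ± 0.444 in SOX2+ and 0.0954 ± 0.191 in SOX2- libraries (SD, n = 4 each). The lowest SOX2+ library, at 0.509, lay above the highest SOX2- library, at 0.382. The difference of 0.992 gave p = 0.0286 in the 2-sided exact permutation test, the smallest p that 4 against 4 libraries allow, and 0.229 after adjustment over the 8 windows, so it did not pass. With flanks of 50 kb, which leave out the region described next, the difference was 0.35. Across the genome, 3.52% of 14424 stretches of 100 kb with a peak in at least 2 lists had every SOX2+ library above every SOX2- library on this scale. Such stretches are shorter than the HoxA flank, which takes 100 kb on each side, so the share is not for windows of like size. The other flanks overlapped between groups.

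**Figure D4:**
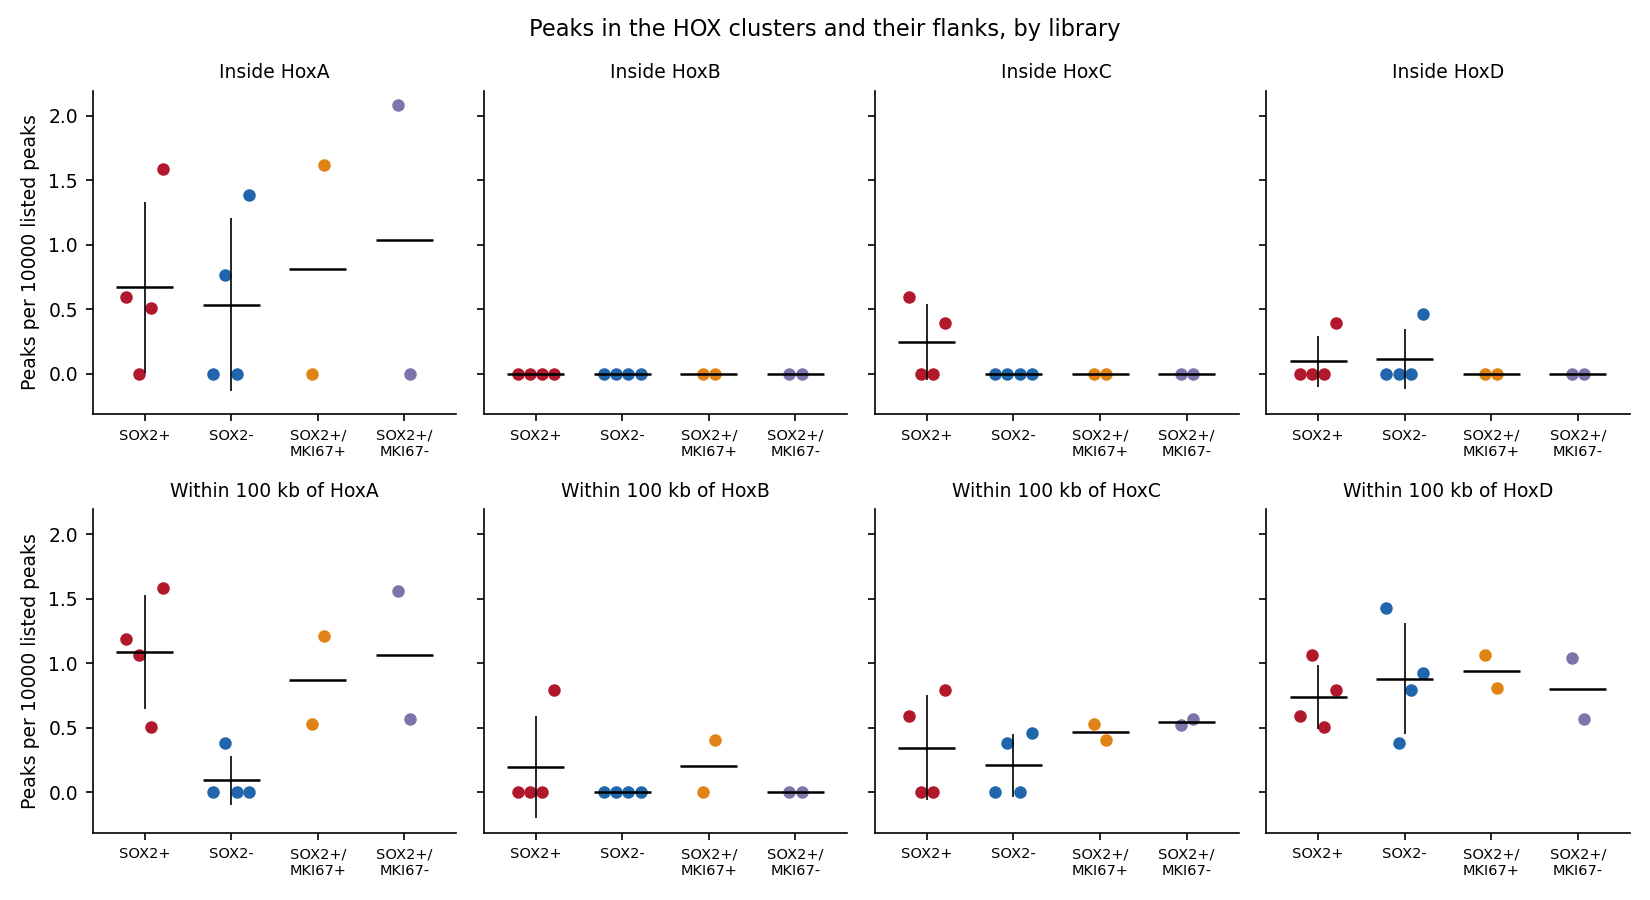
Peaks per 10000 listed peaks (y axis) inside each cluster (top) and within 100 kb of it (bottom), by sorted group; points are libraries, horizontal lines means and vertical lines SD (n = 4; none drawn for n = 2). In the flank of HoxA the 4 SOX2+ libraries, from 0.509 to 1.58, lie above the 4 SOX2- libraries, from 0 to 0.382.

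Of the 17 peaks around HoxA, 8 came from a single region at chr6:52064078-52064608, which lies between genes, 91 kb from the anterior edge of HoxA, 51.8 kb from Skap2 and 38.6 kb from Halr1, a long noncoding RNA gene beside HoxA. It was in 4 of 4 SOX2+ lists, 0 of 4 SOX2- lists, 2 of 2 SOX2+/MKI67+ lists and 2 of 2 SOX2+/MKI67- lists. Genome-wide 4.1% of regions were in at least 3 SOX2+ lists and no SOX2- list. These 1814 regions became 2787, 3905 and 2889 without SOX2+ replicate 1, 2 or 3, when 2 of the remaining 3 lists sufficed, and 662 with only the highest-scoring 7009 peaks per list. The score percentile of the flank region was 40.7, 18.6, 43.7 and 63.2 in SOX2+ replicates 1 to 4, 65.6 and 68.1 in the SOX2+/MKI67+ libraries, and 69.6 and 76.4 in the SOX2+/MKI67- libraries. The SOX2+ list that includes it with 9377 peaks is shorter than the SOX2- lists with 26206, 21682 and 12660 peaks that do not. It was the only region in and around the clusters of this kind, and it was lost when only the highest-scoring 7009 peaks of each list were kept, or only the higher-scoring 50%, since it then left too many SOX2+ lists.

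A further region with the same lists lay on the same side of HoxA, found in a scan of 500 kb that was chosen after the data had been seen. The region at the start site of Skap2, chr6:52012248-52013008, spans the whole promoter window printed above and lies 143 kb from the edge of HoxA. It was in 4 of 4 SOX2+ lists, 0 of 4 SOX2- lists and all 4 lists of the MKI67 sort, with a median score percentile of 91.3 and a fold of 3.79 to 9.02 over background. Counting all peaks assigned to Skap2, the SOX2+ libraries had 2, 2, 3 and 4, the SOX2- libraries 0, 2, 2 and 2, the SOX2+/MKI67+ libraries 4 and 5, and the SOX2+/MKI67- libraries 3 and 3 (log2 difference 0.58 ± 0.22 between SOX2+ and SOX2-, limma adjusted p = 0.307). These counts overlap. Counting only peaks at gene ends, every SOX2+ library had 1 and every SOX2- library 0, and the difference of 1 had an adjusted p of 1.28e-07 in limma, a value that rests on identical counts within each group. Skap2 is also expressed in myeloid cells. Microglia and macrophage markers (7 genes) summed to 2 to 6 peaks in SOX2+, 0 to 3 in SOX2-, 3 to 6 in SOX2+/MKI67+ and 3 to 5 in SOX2+/MKI67- libraries, with 4 of the 7 genes at 0 in all lists, among them Cx3cr1 and Aif1. Ptprc, the pan-leukocyte surface phosphatase, had 2, 1, 2 and 2 assigned peaks in SOX2+ and 0, 0, 0 and 2 in SOX2- libraries (log2 difference 0.98 ± 0.33, limma adjusted p = 0.237). Irf8, a myeloid transcription factor, had 1 in each SOX2+ library and 0, 1, 0 and 0 in SOX2- libraries (log2 difference 0.71 ± 0.23, limma adjusted p = 0.233). Neither was called and the groups share a value at both. Each had a peak in all 4 SOX2+ lists, in all 4 lists of the MKI67 sort and in 1 of 4 SOX2- lists. Spi1, the remaining marker with peaks, did not separate the groups. It had 1, 0, 0 and 3 in SOX2+ and 0, 2, 0 and 1 in SOX2- libraries (log2 difference -0.05 ± 0.45). In the MKI67 sort Spi1 had 0 and 2 in SOX2+/MKI67+ and 1 and 0 in SOX2+/MKI67- libraries. The part of myeloid cells in the Skap2 and HoxA flank results was not tested.

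On the other side of HoxA, Evx1, a homeobox gene that adjoins the posterior end, had 1, 0, 0 and 2 assigned peaks in SOX2+, 0, 1, 0 and 0 in SOX2-, 0 and 2 in SOX2+/MKI67+, and 1 and 0 in SOX2+/MKI67- libraries (log2 difference 0.3 ± 0.45, limma adjusted p = 0.898). A region near it, chr6:52305929-52306343, was in 5 lists, at least 1 from each group. The groups overlap at Evx1.

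Beside HoxD the chromatin was open at the start of Lnpk in every library. The region chr2:74578539-74579312, 89.3 kb from Hoxd13, was in all 12 lists with a median score percentile of 81.7, and it spans the Lnpk window printed above. Counting all peaks assigned to Lnpk, the SOX2+ libraries had 1, 1, 1 and 1, the SOX2- libraries 1, 3, 3 and 3, the SOX2+/MKI67+ libraries 2 and 3, and the SOX2+/MKI67- libraries 1 and 1. The log2 difference between SOX2+ and SOX2- was -0.8 ± 0.17 (limma adjusted p = 0.0822) and was not called. Of 12 fits that each left out 1 library, Lnpk passed in 1, without SOX2- replicate 1, the shortest list (-0.99, limma adjusted p = 0.00269). Counts within each SOX2 group were then identical, so that fit has no spread within these groups to measure. In the other 11 fits the limma adjusted p was up to 0.218. Over the 12 fits the difference ranged from -0.99 to -0.7. It was -0.17 with each list cut to the same number of highest-scoring peaks, and 0 with gene ends alone. The extra peaks assigned to Lnpk lay further from HoxD, in the gene desert beyond that gene. Long-range enhancers of posterior Hoxd genes are known there in limb and genital buds. Regions at chr2:74416004-74416489 and chr2:74426752-74427165, 252 and 241 kb from Hoxd13, were each in 3 of 4 SOX2- and 0 of 4 SOX2+ lists, where 1.54% of regions genome-wide had at least 3 SOX2- lists and no SOX2+ list. Those 680 regions became 3719 without SOX2- replicate 1 and 3453 without SOX2- replicate 3, when 2 of the remaining 3 lists sufficed, and 1136 without SOX2+ replicate 3. The first desert region was also in both SOX2+/MKI67+ lists and the second in 1 of them, and neither was in a SOX2+/MKI67- list.

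Evx2, the homeobox gene next to Hoxd13, had no assigned peak in any list. Mtx2, beyond Hoxd1, had its start-site region (chr2:74825712-74826225) in 1 SOX2+, 1 SOX2-, 2 SOX2+/MKI67+ and 1 SOX2+/MKI67- lists. Peaks per 10000 within 100 kb of HoxD were 0.741 ± 0.247 in SOX2+ and 0.88 ± 0.431 in SOX2- libraries (SD, n = 4 each; exact permutation p = 0.629), a difference of -0.139 that became 0.0427 without SOX2- replicate 1. Around HoxB there were 3 peaks in all, 2 in SOX2+ replicate 4 and 1 in SOX2+/MKI67+ replicate 2. Around HoxC the values were 0.347 ± 0.408 in SOX2+ and 0.211 ± 0.245 in SOX2- libraries (exact permutation p = 0.657). Within 500 kb of each cluster there were regions in all 12 lists. Many were at the ends of coding genes, among them Hibadh and Tax1bp1 by HoxA, Ube2z, Atp5g1 and Cbx1 by HoxB, and Calcoco1 and Cbx5 by HoxC. Others were not, such as those 32.3 kb from Phb by HoxB and 2.88 kb from Gpr84 by HoxC. Regions in all 12 lists lay on both sides of HoxB and HoxC, but only on the higher-coordinate side of HoxA and the lower-coordinate side of HoxD.

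The genes that switch HOX genes on or off, or bind with them, were far more often open than the HOX genes. Of 42 such regulators and cofactors, 22 (52.4%) had a gene-end peak in 6 or more lists, against 0 of 39 HOX genes and 46.7% of all coding genes, and 16 had one in all 12. They averaged 1.26 peaks per gene and library. In the SOX2 sort 37 entered the limma fit, and 1 was called higher (0.758% of all genes were) and 0 lower (0.133%), with a median log2 difference of 0 that equals the median over all genes. Among those not called, the smallest p-values were those of Egr2, the hindbrain segmentation factor, with 3, 1, 2 and 3 peaks in SOX2+ and 0, 1, 1 and 1 in SOX2- libraries (log2 difference 0.81 ± 0.18, limma adjusted p = 0.0956), and Pbx3, a HOX partner, with 1 in each SOX2+ library and 1, 5, 2 and 2 in SOX2- libraries (-0.76 ± 0.25, limma adjusted p = 0.227). In the MKI67 sort 0 of the 37 were called.

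**Figure D5:**
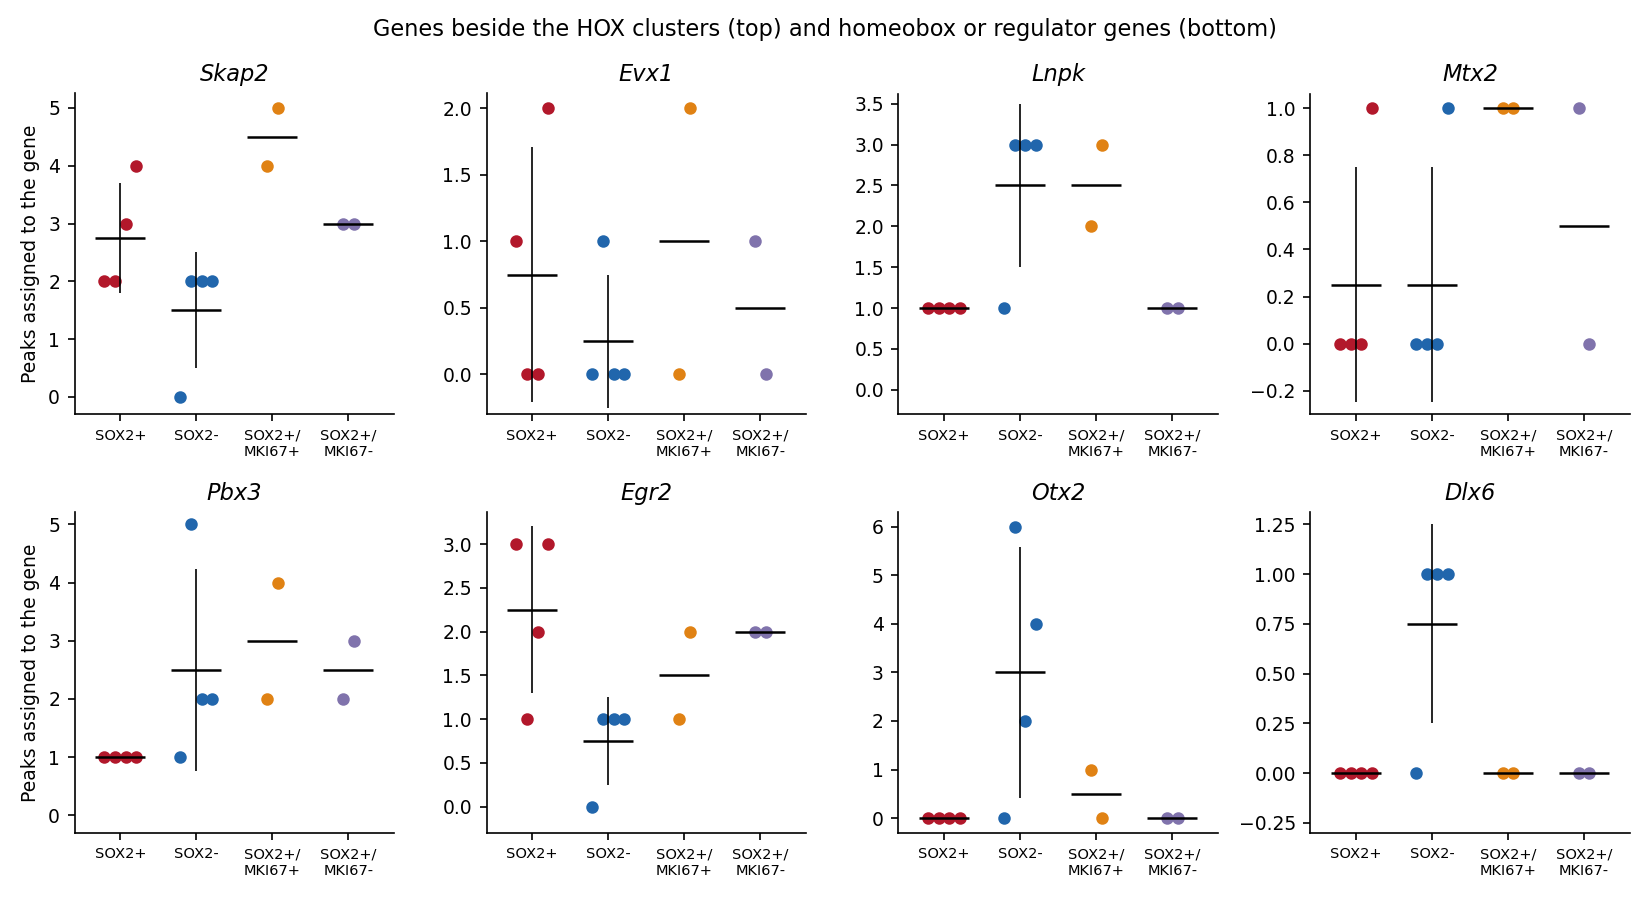
Peaks assigned to a gene (y axis) in each library, by sorted group, for genes beside HoxA and HoxD (top) and for 4 homeobox or regulator genes (bottom); points are libraries, horizontal lines means and vertical lines SD (n = 4; none drawn for n = 2). Otx2 and Dlx6 have 0 peaks in all SOX2+ libraries and peaks in 3 of 4 SOX2- libraries, and Egr2 averages 2.25 peaks in SOX2+ and 0.75 in SOX2- libraries.

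Homeobox genes that act in front of the HOX domain contrasted with the clusters. Of 13 such genes, 9 (69.2%) had a gene-end peak in any list, against 15.4% of the HOX genes and 57.6% of all coding genes. In 6 or more lists it was 4 of 13 (30.8%), above the 0 of 39 HOX genes but below the 46.7% of all coding genes. In all 12 lists it was 0 of 13, against 24.1% of all coding genes. All 13 had an assigned peak. They averaged 1.23 peaks per gene and library. In the SOX2 sort 12 entered the fit and 0 were called, with a median log2 difference of 0.11, against 0 over all genes. Otx2, a forebrain and midbrain factor that is also active in posterior cerebellar granule cell precursors, had 0 in each SOX2+ library and 0, 6, 2 and 4 in SOX2- libraries (-1.81 ± 0.41, limma adjusted p = 0.104). Of 12 fits that each left out 1 library, Otx2 passed in 1, without SOX2- replicate 1, at a limma adjusted p of 0.0338. In the other 11 fits the limma adjusted p was up to 0.293. Otx1 averaged 1 peak in SOX2+ and 2 in SOX2- libraries (-0.74 ± 0.21, limma adjusted p = 0.193), and Irx2 averaged 2.75 in SOX2+ and 1 in SOX2- libraries (1.01 ± 0.32, limma adjusted p = 0.223). In the MKI67 sort 0 were called.

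The EVX and DLX genes, relatives of the HOX genes that lie next to or on the same chromosomes as the clusters, also had few peaks at their ends. Of 8, 2 (25%) had a gene-end peak in any list, against 15.4% of the HOX genes and 57.6% of all coding genes, and 0 of 6 tested were called in the SOX2 sort (median log2 difference -0.29). Dlx6, a forebrain and branchial arch factor, had 0 in each SOX2+ library and 0, 1, 1 and 1 in SOX2- libraries (-0.8 ± 0.17, limma adjusted p = 0.0785). It had 0 in the MKI67 sort, so it entered the fit only through its SOX2- peaks. Of 12 fits that each left out 1 library, it passed in 1, without SOX2- replicate 1. All counts within each group were then identical, so that fit has no spread to measure. In the other 11 fits the limma adjusted p was up to 0.218. The ParaHox genes, the sister cluster of the HOX genes, numbered 4, of which 2 were tested and 0 called. Of 7 factors of hindbrain and spinal neurons, 6 were tested and 0 called in the SOX2 sort (median log2 difference -0.59). Olig3, which marks the dorsal hindbrain and the rhombic lip, had 0, 0, 4 and 0 peaks in SOX2+ and 1, 7, 2 and 6 in SOX2- libraries (-1.67 ± 0.56, limma adjusted p = 0.236).

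The labels of the sort were checked at Sox2, which had 5, 2, 6 and 4 assigned peaks in SOX2+ and 0, 1, 1 and 1 in SOX2- libraries (log2 difference 1.49 ± 0.26, limma adjusted p = 0.0576). The groups did not overlap, which was so for 1.09% of all genes tested in that direction. Mki67, the label of the second sort, had 2 and 5 in SOX2+/MKI67+ and 2 and 1 in SOX2+/MKI67- libraries, which overlap (log2 difference 0.64 ± 0.32, limma adjusted p = 1), so its peaks do not separate that sort. All 9 granule neuron progenitor and SHH tumour genes had a gene-end peak in at least 1 list, against 57.6% of all coding genes. In 6 or more lists it was 6 of 9 (66.7%), against 46.7% of all coding genes. Atoh1 had one in 8 lists, Barhl1 and Gli1 in 2 each and Pax6 in 1. Lymphocyte genes (5) had no assigned peak in any list, which was so for 29.4% of all coding genes. Of the 5, Cd4 alone had a gene-end peak, in 7 lists. Endothelial and mural genes (6) summed to 1 to 6 peaks in SOX2+, 0 to 8 in SOX2-, 5 in both SOX2+/MKI67+ and 4 to 5 in SOX2+/MKI67- libraries, and fibroblast genes (7) to 0 to 9 in SOX2+, 0 to 9 in SOX2-, 5 to 7 in SOX2+/MKI67+ and 2 to 7 in SOX2+/MKI67- libraries. Blood progenitor genes (5), a lineage that uses HoxA genes, summed to 2 to 5 peaks in SOX2+, 0 to 5 in SOX2-, 3 to 4 in SOX2+/MKI67+ and 3 to 4 in SOX2+/MKI67- libraries. Ependymal genes (4) summed to 3 to 9 in SOX2+, 1 to 8 in SOX2-, 7 to 10 in SOX2+/MKI67+ and 6 to 8 in SOX2+/MKI67- libraries. In these sorted bulk samples a peak seen in few cells and a weak peak in many cannot be told apart, and the part of such cells in the HOX results was not tested.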

How the data were processed

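ATAC-seq was run on 35000 to 50000 sorted cells per library with 50 bp single-end reads, per the labels' protocols. Alignment used Bowtie2 and mm10, and peak calling MACS2, per the submitters' processing notes. Versions, settings, duplicate handling and any shift of read ends are not given in the sources used here. Each deposited list holds the peaks of 1 library. The deposited values per peak are a score, a fold (ratio) over local background, −log10 of the p-value and of the q-value, and the summit offset. Scores were used to rank peaks within a list and folds to describe them, and −log10 values were only read along. Lists from libraries of unequal depth differ in length, so weak peaks can be missing from short lists.

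From these lists, peak midpoints were counted in windows, within 1 kb of gene ends, and for the nearest gene span within 100 kb (GRCm38.p6 gene table, autosomes and X; protein-coding entries ending within the first 3 Mb of a chromosome, which carry scaffold positions, were left out). Windows were compared as peaks per 10000 listed peaks by 2-sided exact permutation tests, with Benjamini-Hochberg adjustment over 8 windows. Peaks per gene were compared with limma 3.58.1 in R 4.3.3 on log2(peaks + 1), with all 12 libraries, the 4 groups and log10 list length in 1 fit, a filter that kept genes seen in 2 or more libraries and Benjamini-Hochberg adjustment over all genes tested. Fold changes on this scale understate those of genes with few peaks. The fit was tested on simulated data. Other steps used Python 3.11.15, pandas 2.3.3 and scipy 1.17.1. Promoter and miRNA sequences are from RefSeq (GRCm38.p6). The gene table gives spans without strand or exons, so exon or intron positions are not stated, and overlapping spans cannot be told apart by a peak.

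The HOX genes and all gene lists were chosen with earlier results of these data known. All 39 HOX genes are accounted for. Per-library values are given for HOX genes seen in 6 or more libraries or in the fit, for the nearest coding genes beside the clusters, and for list members that passed or had the smallest p-values. Some genes that meet this rule are not reported here by name. Alternatives changed list length, score threshold, overlap, flank width, pseudocount, filter, depth term, replicate block and libraries left out. Replicate numbers were not taken as pairs.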

Additional observations from a re-analysis of the deposited data

Results flagged for a closer look

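In 10 of 34 sets of 4 libraries that could be examined, the highest or lowest library stood apart from the other 3 by Dixon's criterion, which chance gives in about 1 of 20. In counts that are mostly 0, a single library with a peak is enough for this. Inside HoxD, SOX2+ replicate 4 had 0.396 peaks per 10000 and SOX2- replicate 4 had 0.461, each against 0 in the other 3 libraries of its group. Around HoxB, SOX2+ replicate 4 had 0.791, and around HoxA, SOX2- replicate 2 had 0.382, again against 0 in the others of the group. The share of HOX genes with a gene-end peak was 5.13% in SOX2- replicate 4 and 0% in the other SOX2- libraries. SOX2+ replicate 4 had 2 peaks assigned to Hoxa3, against 0 in the other SOX2+ libraries. Low values stood apart in SOX2- replicate 1, the library with the shortest list: it had 1 peak assigned to Lnpk, against 3 in the other SOX2- libraries, 0 assigned to Skap2, against 2, and 0 assigned to each of Egr2 and Dlx6, against 1. SOX2+ replicate 4 and SOX2- replicate 4 had lists of 25272 and 21682 peaks.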

How the results depend on the processing

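Of 409 recomputed values, 346 kept their direction and side of the threshold, or stayed within the spread or within 1.5 times of a count. The HOX result that 0 genes were called held in every limma fit, but with only the highest-scoring 7009 peaks per list, the higher-scoring 50% of each list or gene ends alone, 0 HOX genes could be tested. With 7009 peaks per list the difference between SOX2+ and SOX2- was 0 inside HoxA, HoxC and HoxD and around all 4 clusters. With the higher-scoring 50% it was 0 inside HoxC and HoxD and around HoxB and HoxC. With peak numbers as listed it was 0 inside and around HoxD, and with a 50 kb flank it was 0 around HoxD. With a 500 kb flank, chosen after the data were seen, it was -1.21 around HoxB and -0.658 around HoxC. Under both of the score settings the count of SOX2+-only regions in and around the clusters was 0 in place of 1. The difference around HoxA was 1.75 peaks with numbers as listed (exact permutation p = 0.0857) and 0.35 per 10000 with a 50 kb flank. With gene ends widened to 2000 bp, the HOX share was 3.85% in SOX2- and in SOX2+/MKI67+ libraries and 1.28% in SOX2+/MKI67- libraries. The cause of these shifts was not tested. In the SOX2 sort 279 genes were called with 7009 peaks per list, 71 with the higher-scoring 50% and 45 with gene ends alone, against 127. In the MKI67 sort 12 were called with a filter of 4 libraries and 58 with 7009 peaks per list, against 32.

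Leaving out each library in turn, the difference ranged from -0.168 to 0.418 inside HoxA, from -0.115 to 0.0989 inside HoxD, from 0 to 0.264 around HoxB, from -0.0121 to 0.252 around HoxC and from -0.306 to 0.0427 around HoxD. Around HoxA it ranged from 0.827 to 1.18, each with an exact permutation p of 0.0571, the smallest that 3 against 4 libraries allow. SOX2--only regions numbered 0 to 1, with 1 when SOX2- replicate 1 or SOX2- replicate 3 was left out and 2 of the remaining 3 lists sufficed. Genes called ranged from 85 to 200 in the SOX2 sort, with 200 without SOX2+ replicate 2, and from 32 to 82 in the MKI67 sort, above 1.5 times the count of 32 without SOX2+ replicate 4, without either SOX2+/MKI67+ library and without SOX2+/MKI67- replicate 2. Log2 differences ranged from -0.22 to 0.0575 for Hoxa9 and from -0.26 to 0.12 for Hoxc4.

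Same-numbered SOX2+ and SOX2- libraries deviated from their group means with correlations of 0.0191 to 0.126 over 4 pairs, against -0.0826 to 0.0584 over the 12 other pairs. The same-numbered values were all positive, but the ranges overlap and the labels do not say whether numbers pair samples. The numbers were not taken as pairs, and these values do not settle whether they are. With the replicate block 60 genes were called in the SOX2 sort and 0 HOX genes, and the HoxA flank had an exact sign-flip permutation p of 0.125, the smallest that 4 pairs allow.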
